A study of Rattus norvegicus with 42 samples.

Results

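Amino acids enter and leave liver cells through membrane carriers, and the carriers of 7 solute carrier families were followed here in rat liver exposed to corticosterone (CORT) in different patterns. The members were all genes whose symbol began with Slc1a, Slc3a, Slc6a, Slc7a, Slc36a, Slc38a or Slc43a and a number, which gave 62 of the 26426 genes of the pSer2 Pol2 table. There were 19 SLC6, 16 SLC7, 11 SLC38, 7 SLC1, 4 SLC36, 3 SLC43 and 2 SLC3 genes. One of the 62, Slc7a6os, is named for its position opposite Slc7a6 and is not itself a carrier. All 62 had a row in the RNA count table.

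Adrenalectomised male Sprague Dawley rats, which lack the adrenal source of CORT, received CORT or vehicle (VEH) through a vein, either as hourly pulses (PULS) or as a constant infusion (CONS). All rats had been given dexamethasone at surgery and CORT in their drinking water during recovery, so the VEH groups were hormone-withdrawn rather than never exposed. Liver chromatin was taken at 140 min, within a pulse (PEAK_140), and at 180 min, between pulses (NADIR_180). Constant infusion gave CONS_140 and CONS_180. The VEH group was given vehicle in pulses, with 1 library at 140 min and 1 at 180 min. In GR and pSer2 Pol2 these are called VEH replicate 1 (140 min) and VEH replicate 2 (180 min), so leaving 1 out also removes a time. Each of these 5 groups had 2 libraries for the glucocorticoid receptor (GR), the nuclear receptor that CORT activates, and 2 for RNA polymerase II phosphorylated at serine 2 (pSer2 Pol2), the elongating form, each library pooling the livers of several rats. Liver RNA was sequenced at 180 min in the 4 groups PULS CORT, PULS VEH, CONS CORT and CONS VEH, with 3 libraries each; whether each came from 1 rat is not stated in the labels, so p-values measure the spread between these libraries.

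The families differ in what they carry and how. SLC38 carriers of system A (Slc38a1, Slc38a2 and Slc38a4) draw small neutral amino acids in with sodium, Slc38a3 carries glutamine in either direction, and Slc38a9 sits on the lysosome as an amino acid sensor. SLC7 carriers exchange or take up cationic and large neutral amino acids, in part as the light chains of SLC3 glycoproteins. SLC1 carriers take up glutamate or neutral amino acids. SLC6 carriers take up betaine, taurine, GABA, glycine and other small solutes with sodium and chloride, not all of them amino acids. Slc36a1 is coupled to protons, and Slc43a1 and Slc43a2 move large neutral amino acids by facilitated diffusion. In liver, uptake of alanine and other amino acids feeds gluconeogenesis and urea synthesis, and glucocorticoids are known to favour both.

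Libraries held 3956379 to 7777219 gene-assigned reads for RNA, 4938473 to 9326927 tags for pSer2 Pol2 and 2051977 to 6715803 tags for GR. The RNA matched its labels in that 5 of 6 textbook GR target genes were raised by CORT in each pattern, and the sixth, Sgk1, was lowered in CONS. Hepatocyte marker genes summed to between 141000 and 188000 CPM (read counts scaled to a common library total) in every library. Summed periportal hepatocyte markers were higher with CORT (18600 to 27300 CPM) than with VEH (8980 to 13200 CPM), with 5 of 8 raised and none lowered in each pattern, and summed stellate cell markers were lower (167 to 223 against 241 to 300 CPM), with 0 of 6 called in PULS and 1 raised and 1 lowered in CONS. Of 8 pericentral hepatocyte markers, 1 was raised and 2 were lowered in PULS and 2 were lowered in CONS, and no tested marker of hepatocytes as a whole, cholangiocytes, Kupffer cells, endothelium, erythroid cells, neutrophils or lymphocytes was called. The part of these shifts in the results below was not tested, and in bulk liver fewer cells of a type and less RNA per cell cannot be told apart.

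Of the 62 members, 45 had more than 10 reads over the 12 RNA libraries and were tested; 33 reached a mean of 1 CPM and 19 reached 10 CPM. The 17 untested members had at most 10 of 64590777 reads and 6 of them had none, namely 4 SLC6 genes and 2 SLC7 genes; a count of 0 in a library allowed at most 0.366 to 0.746 CPM. Averaged over all 12 libraries, CORT and VEH together, Slc7a2, Slc38a4, Slc38a3, Slc6a13, Slc38a2 and Slc6a6 had 1434, 1078, 684, 143, 117 and 82.3 CPM. These means include the CORT libraries and CPM is not scaled by transcript length, so they served only to choose genes to name and give no order of levels.

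CORT raised the RNA of few carriers, and no carrier was called lowered, by the criteria used here, a change above 1.5-fold with a Benjamini-Hochberg adjusted p below 0.05 over all genes (edgeR quasi-likelihood test). In PULS, 3 of 45 members were raised (Slc38a2, Slc7a2 and Slc43a1), which is 6.67% beside 1.79% of the 14092 genes tested, and 0 were lowered beside 2.44%. In CONS, 4 of 45 were raised (Slc38a2, Slc7a2, Slc38a4 and Slc1a2), 8.89% beside 4.45% of all genes, and 0 were lowered beside 4.75%. Slc38a2 and Slc7a2 were called in both patterns. The absence of a lowered member depended on the fit: in CONS, Slc6a6 was called lowered with no filter on low counts (-0.846 on the log2 scale) and with only the libraries of the comparison (-0.845), and Slc7a5, a large neutral amino acid exchanger, with the replicate number as a block (-1). The median log2 fold change of the 45 members was -0.07 in PULS and -0.03 in CONS, against -0.01 for all genes in each.

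Slc38a2, the widely expressed system A carrier for alanine, glutamine and serine, had the largest rise among the called members. Its level was 46.7, 49.5 and 38.2 CPM in the PULS VEH libraries and 139, 124 and 84.0 CPM in the PULS CORT libraries. It was 32.97, 41.0 and 43.1 CPM in CONS VEH and 214, 338 and 248 CPM in CONS CORT. Every CORT library lay above every VEH library of its pattern, and each CONS CORT library lay above each PULS CORT library. The log2 fold change was 1.37 ± 0.20 (SE, n = 3 against 3; edgeR adjusted p = 0.00069) in PULS and 2.78 ± 0.20 (SE; edgeR adjusted p = 2.4e-07) in CONS, a 2.58-fold and a 6.87-fold rise.

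Slc7a2, the liver carrier of arginine, lysine and ornithine, rose in both patterns. It stood at 1053, 622 and 711 CPM in PULS VEH and at 1580, 1115 and 1303 CPM in PULS CORT, a log2 fold change of 0.74 ± 0.19 (edgeR adjusted p = 0.032). In CONS it went from 780, 694 and 1023 CPM with VEH to 2846, 2903 and 2573 CPM with CORT, a log2 fold change of 1.74 ± 0.20 (edgeR adjusted p = 2e-05). The lowest PULS CORT library exceeded the highest PULS VEH library by a small margin, while in CONS the groups were far apart. The PULS call was lost without any 1 of PULS CORT replicates 1 and 3 and PULS VEH replicates 2 and 3, and without PULS CORT replicate 1 or PULS VEH replicate 2 the log2 fold change was 0.60 (adjusted p = 0.13 in either case).

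Slc38a4, a liver-rich system A carrier, rose in CONS from 843, 1019 and 1031 CPM with VEH to 1482, 1662 and 1448 CPM with CORT (log2 fold change 0.67 ± 0.13, edgeR adjusted p = 0.0032). In PULS it was 898, 694 and 797 CPM with VEH and 1155, 933 and 971 CPM with CORT, without overlap, but its log2 fold change of 0.36 ± 0.13 did not pass (edgeR adjusted p = 0.14). The CONS change exceeded the fold criterion by little, and without CONS VEH replicate 1 the log2 fold change was 0.578, under the criterion, so that the call was lost.

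Slc43a1, which carries branched-chain and other large neutral amino acids, was called in PULS alone. It measured 31.1, 31.3 and 44.6 CPM in PULS VEH and 53.9, 48.7 and 63.4 CPM in PULS CORT (log2 fold change 0.63 ± 0.17, edgeR adjusted p = 0.036). In CONS it was 47.0, 45.6 and 37.5 CPM with VEH and 45.1, 44.8 and 60.4 CPM with CORT, with overlapping groups and a log2 fold change of 0.20 ± 0.16. The PULS and CONS responses of Slc43a1 were not shown to differ (difference -0.43 ± 0.23 on the log2 scale, edgeR adjusted p = 0.47). With 1 library left out, the PULS call held only without PULS VEH replicate 3 (0.82, adjusted p = 0.014), and in the other fits the adjusted p reached 0.13.

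Slc1a2, a glutamate carrier known in liver from the cells around the central vein, was called in CONS with few reads. It was 11.6, 13.4 and 11.04 CPM in CONS VEH and 27.8, 33.4 and 13.97 CPM in CONS CORT (log2 fold change 1.07 ± 0.31, edgeR adjusted p = 0.029). CONS CORT replicate 3 lay just above the VEH libraries and the other two well above them. In PULS the groups overlapped, with a log2 fold change of 0.32 ± 0.33. With 1 library left out, the CONS call held only without CONS CORT replicate 3 (1.37) or CONS VEH replicate 2 (1.15), and in the other fits the adjusted p reached 0.15.

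**Figure D1:**
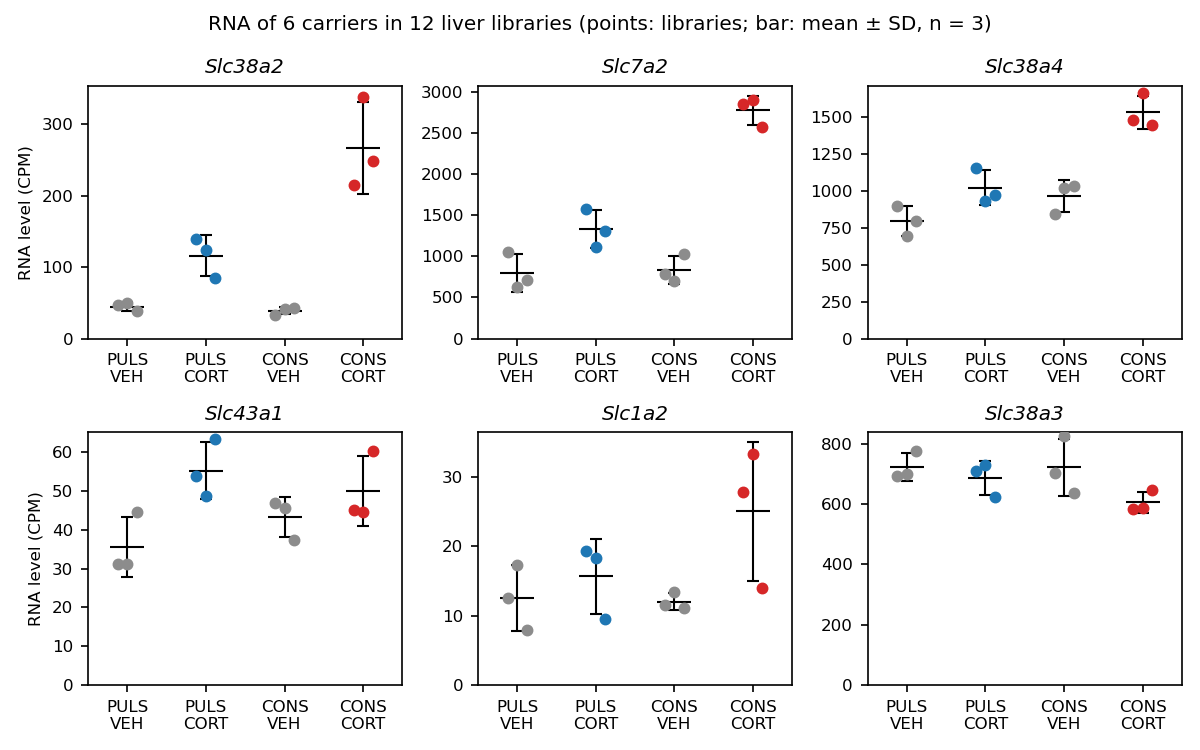
RNA level in CPM (linear axes from 0) of 6 carriers in the PULS VEH, PULS CORT, CONS VEH and CONS CORT livers; points are libraries, horizontal bars the mean and whiskers the SD of 3 libraries. Slc38a2 reaches 214 to 338 CPM in CONS CORT against 32.97 to 43.1 CPM in CONS VEH, and Slc38a3 stays between 582.6 and 824 CPM in all 12 libraries.

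Slc38a3, the glutamine carrier, had no call, at 583 to 646 CPM in CONS CORT and 636 to 824 CPM in CONS VEH (log2 fold change -0.25 ± 0.12, edgeR adjusted p = 0.21). Slc6a13, which carries GABA, betaine and taurine, ranged from 96.4 to 142 CPM in CONS VEH and from 127 to 209 CPM in CONS CORT (0.45 ± 0.19 on the log2 scale, edgeR adjusted p = 0.15). Slc6a6, the taurine carrier, had values of 42.2 to 74.4 CPM in CONS CORT, all under its 94.0 to 127 CPM in CONS VEH, but its log2 fold change of -0.85 ± 0.32 did not pass (edgeR adjusted p = 0.099), and in PULS VEH it spread from 38.3 to 142 CPM. Slc38a9 had an adjusted p of 0.039 in PULS (edgeR), with a log2 fold change of -0.56 ± 0.15 that stayed under the fold criterion; its CORT libraries (18.5 to 26.6 CPM) lay below its VEH libraries (32.6 to 36.1 CPM).

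**Figure D2:**
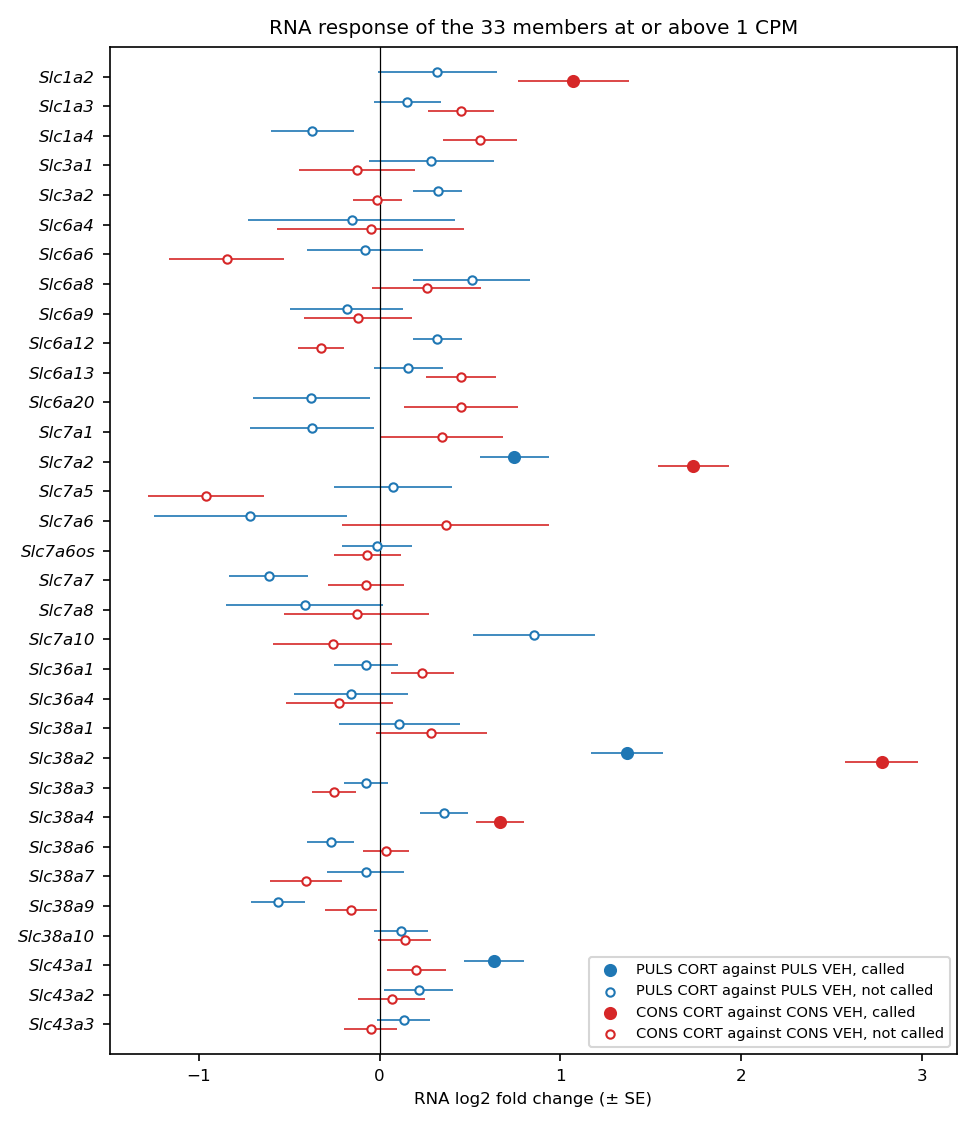
RNA log2 fold change with its SE for the 33 members with a mean of at least 1 CPM, in order of family; blue is PULS CORT against PULS VEH, red is CONS CORT against CONS VEH, and filled points passed both criteria. The filled points are Slc38a2, Slc7a2 and Slc43a1 in blue and Slc38a2, Slc7a2, Slc38a4 and Slc1a2 in red, all to the right of 0.

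Whether the CONS response was larger than the PULS response was tested directly. None of the 45 members passed, beside 0.0284% of all genes, with 7 members, 15.6%, at an unadjusted p under 0.05 beside 12.4% of all genes (edgeR). The CONS response exceeded the PULS response by 1.41 ± 0.28 on the log2 scale for Slc38a2 (edgeR adjusted p = 0.066) and by 0.99 ± 0.27 for Slc7a2 (edgeR adjusted p = 0.13). Both passed with DESeq2's Wald test (adjusted p = 0.00055 and 0.014) and with edgeR when no filter on low counts was used (adjusted p = 0.0015 and 0.027), with log2 differences of 1.40 and 0.99 in DESeq2. The vehicle groups, CONS VEH against PULS VEH, gave 0 of 45 members called, beside 0% of all genes, with 3 members, 6.67%, at an unadjusted p under 0.05 beside 9.13% of all genes, and DESeq2 also called 0.

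Among 16 tested carriers of amino acids and related solutes outside the 7 families, 2 were raised in PULS and 3 in CONS. The shares of all genes raised were 1.79% and 4.45%. None of the 16 was lowered, beside 2.44% and 4.75% of all genes. Slc25a15, the mitochondrial ornithine carrier of the urea cycle, rose by 1.43 ± 0.15 (log2, SE) in PULS and 2.40 ± 0.15 in CONS (edgeR adjusted p = 3.5e-05 and 4.6e-08). Slc25a29, a mitochondrial carrier of basic amino acids with a mean of only 2.36 CPM, rose by 2.09 ± 0.53 and 1.40 ± 0.41 (edgeR adjusted p = 0.03 and 0.033). Slc16a10, the aromatic amino acid carrier, rose by 2.00 ± 0.25 in CONS (edgeR adjusted p = 5.2e-05), and had 0.64 ± 0.25 in PULS (edgeR adjusted p = 0.15). Among 21 tested genes of amino acid sensing and mTORC1 signalling, 0 were called in PULS. In CONS, Sesn2 was raised (0.94 ± 0.24) and Sesn3 lowered (-0.81 ± 0.20), against the same 4.45% and 4.75% of all genes. Both are sestrins, a family that restrains mTORC1. Atf4 and Asns, the factor and a target gene of the amino acid response, were not called in either pattern.

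The pSer2 Pol2 values covered up to the first 10 kb of each transcript and were given as log2 values. Tags were present in at least 1 library for 35 members, but some of these had almost none. Slc38a9 and Slc6a4, for example, shared the same differences from VEH, 0.00101 at PEAK_140 and 0.3851 at CONS_140. In such members a fall could not be seen, and their values enter the CONS_140 median below. Against VEH, CONS_140 had 3 of the 35 called and PEAK_140 had 1, while NADIR_180 and CONS_180 had 0 (limma, same criteria). Among all 16568 genes the shares raised were 0.38% (PEAK_140), 0% (NADIR_180), 0.646% (CONS_140) and 0.181% (CONS_180). No member was lowered, beside 0.634%, 0.00604%, 0.175% and 0.0543% of all genes in the same order. With a gene of several regions taken throughout by its region of highest mean value, CONS_140 had 2 called members, without Slc38a4. At NADIR_180 and CONS_180, 1 and 3 members had an unadjusted p under 0.05 (limma), 2.86% and 8.57% beside 1.41% and 2.85% of all genes. At CONS_140 the median difference was 0.15 over all genes and 0.32 over the 35 members, but it came from 1 library: the members' median stood 0.655 above the VEH mean in replicate 1, as it did by 0.42 over all genes, and at -0.0154 in replicate 2.

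Slc38a2 (rn6 chr7:138090841-138100841, minus strand) had pSer2 Pol2 values of 8.01 and 7.87 in VEH. They were 10.21 and 9.99 at PEAK_140 and 8.46 and 8.31 at NADIR_180. They were 10.28 and 9.95 at CONS_140 and 9.44 and 9.15 at CONS_180. The VEH libraries were lowest and the NADIR_180 libraries lay just above them, while PEAK_140 and CONS_140 overlapped at the top. The log2 difference from VEH was 2.16 ± 0.29 at PEAK_140 (limma adjusted p = 0.0055), 2.17 ± 0.29 at CONS_140 (limma adjusted p = 0.0058) and 1.35 ± 0.29 at CONS_180 (limma adjusted p = 0.14), the last passing only with each library centred on its median (adjusted p = 0.015). Slc38a2 was also the 1 member of 35 higher at PEAK_140 than at NADIR_180 (1.72 ± 0.29, limma adjusted p = 0.025), beside 0.26% of all genes. Without VEH replicate 2 the adjusted p was 0.063 at PEAK_140 and 0.056 at CONS_140, and without PEAK_140 replicate 1 it was 0.071 at PEAK_140. For PEAK_140 against NADIR_180 it rose to 0.09 to 0.25 when any 1 of the 4 libraries was left out.

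Slc7a2 (rn6 chr16:54503349-54513349, minus strand) had 10.02 and 9.985 in VEH, 10.98 and 11.19 at PEAK_140 and 9.83 and 9.85 at NADIR_180. In constant infusion it had 11.35 and 11.22 at 140 min and 10.4 and 10.82 at 180 min. PEAK_140 and CONS_140 lay above all others and NADIR_180 lay just under VEH. The difference from VEH was called at CONS_140 (1.28 ± 0.25, limma adjusted p = 0.046), and at PEAK_140 it was 1.08 ± 0.25 (limma adjusted p = 0.092, but 0.038 with no variance trend and 0.018 with centred libraries). The CONS_140 call was lost without VEH replicate 1, VEH replicate 2 or CONS_140 replicate 1 (adjusted p = 0.15, 0.19 and 0.11).

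Slc38a4 had 2 annotated transcript starts, and the values differed between them. Over the 10 kb from the upstream start (rn6 chr7:138502952-138512952, minus strand) the values were 6.14 and 6.02 in VEH, 7.27 and 6.95 at PEAK_140 and 6.47 and 6.22 at NADIR_180. At CONS_140 they were 8.095 and 8.08, above every other library, and at CONS_180 they were 6.73 and 6.97. The difference at CONS_140 was 2.01 ± 0.31 (limma adjusted p = 0.012) and that at PEAK_140 was 1.03 ± 0.31 (limma adjusted p = 0.31). From the downstream start (rn6 chr7:138473612-138483612), with higher values throughout, the CONS_140 difference of 1.15 ± 0.30 was not called (limma adjusted p = 0.19). The upstream call was lost without VEH replicate 1, VEH replicate 2 or CONS_140 replicate 1 (adjusted p = 0.054, 0.074 and 0.09).

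**Figure D3:**
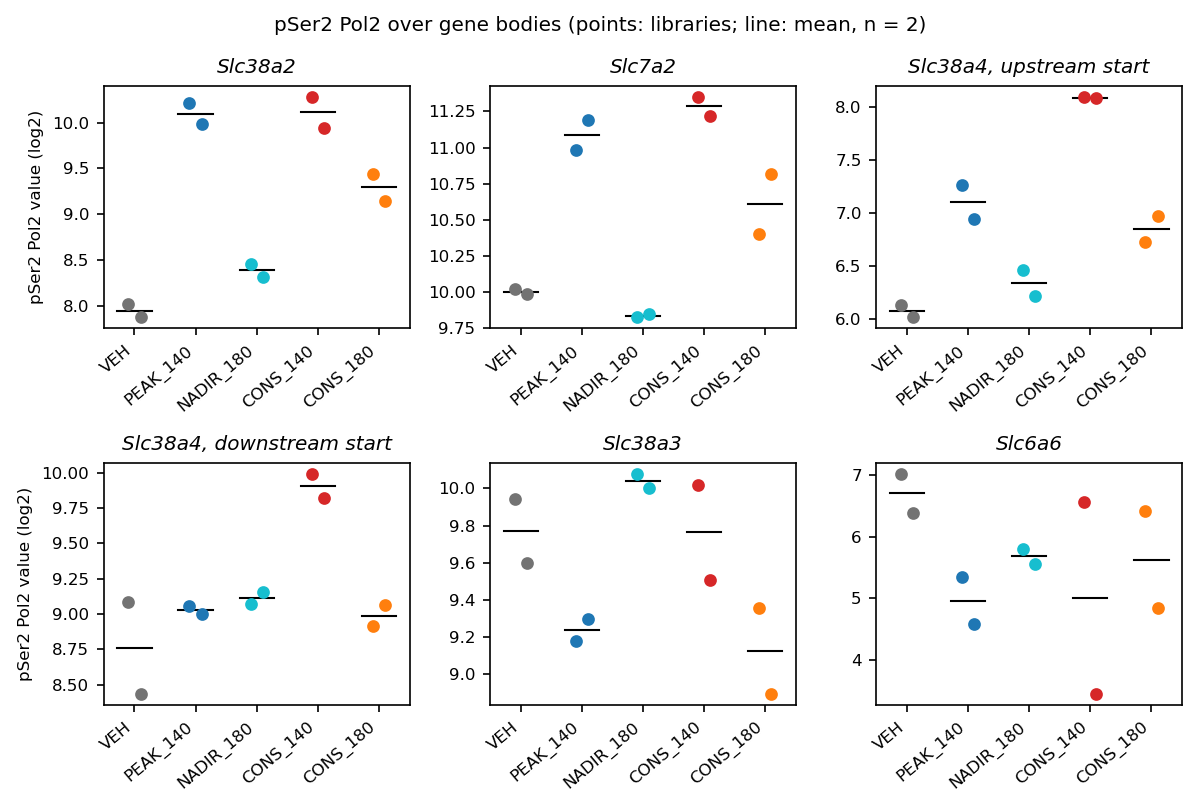
pSer2 Pol2 values (log2, axes not starting at 0) for Slc38a2, Slc7a2, Slc38a4 from both of its starts, Slc38a3 and Slc6a6; points are the 2 libraries of a group and lines their mean. Slc38a2 stands at 10.21 and 9.99 at PEAK_140 and at 8.46 and 8.31 at NADIR_180, and Slc6a6 at CONS_140 spans 3.448 to 6.558.

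Among members with no call, Slc3a2, the heavy chain that SLC7 light chains bind, had a log2 difference of 1.24 ± 0.43 at CONS_140 (limma adjusted p = 0.47), and Slc6a13 had 1.04 ± 0.36 (limma adjusted p = 0.48). Slc43a1, whose RNA was raised in PULS, had 0.45 ± 0.66 at PEAK_140. Slc1a2, whose RNA was raised in CONS, had values of about 0.21 in 9 of the 10 libraries, the level of a region without tags in those libraries, so its pSer2 Pol2 could not be followed at this depth. One library decided much at CONS_140: without CONS_140 replicate 2, many more were called than the 3 members and 136 genes of the full fit. That fit rests on replicate 1 alone, which stood above the VEH mean by a median of 0.42 over all genes. In replicate 2 this median was -0.0242. Slc6a6 had 3.448 in CONS_140 replicate 2 against 6.558 in replicate 1. For pSer2 Pol2, a different change from 140 to 180 min under PULS than under CONS was called for 0 of 35 members, beside 0.0664% of all genes, with 3, 8.57%, at an unadjusted p under 0.05 beside 6.44% of all genes (limma).

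GR was found near a minority of the carriers. Of the 3981 GR regions, 31 had their centre within 50 kb of a transcript start of 17 members, 27.4% of the members beside 16.9% of all genes; among genes with an RNA test the shares were 33.3% and 23.5%. None of the 7 SLC1 and 2 SLC3 genes had one. Of the 5 members raised in RNA, 4 had a region (Slc38a2, Slc7a2, Slc38a4 and Slc43a1) and Slc1a2 had none. Of the 45 members tested in RNA, 15 had a region. The regions had been listed because they were peaks in at least 1 of the 5 groups, so a difference from VEH is in part built into the list. Those near members were marked as peaks in groups other than NADIR_180. A difference from NADIR_180, and a time effect that rests on it, is therefore also in part built in.

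At PEAK_140, 26 of the 31 regions were raised and 2 lowered against VEH (limma), 83.9% and 6.45% beside 78.6% and 1.83% of all regions. At NADIR_180, 6 were raised (19.4% beside 7.44%); the count was 3 without VEH replicate 1, 1 without VEH replicate 2 and 10 without NADIR_180 replicate 2. At CONS_140, 23 were raised and 1 lowered (74.2% and 3.23% beside 64.7% and 0.377%), and at CONS_180, 23 were raised and 2 lowered (74.2% and 6.45% beside 67.9% and 0.301%). The median log2 difference of the 31 regions was 4.34, 1.55, 4.00 and 3.83 in that order, against 4.17, 0.841, 3.38 and 3.46 for all regions. The members' regions thus lay close to the general rise in GR at PEAK_140, CONS_140 and CONS_180. At NADIR_180 they lay above it, and 29% had an unadjusted p under 0.05 beside 16.8% of all regions (limma). With each library centred on its median, which removes that general rise, the counts were 3 raised and 3 lowered at PEAK_140, 0 at NADIR_180, 4 and 2 at CONS_140 and 3 and 2 at CONS_180.

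Slc7a2 had a region in its first intron, 22.4 kb from the start (rn6 chr16:54490617-54491242). GR values there, on a log2 scale, were -0.40 and -0.60 in VEH and 6.55 and 6.61 at PEAK_140. A library without signal lies near -1, and higher at regions where other libraries are high. The VEH pair here is of that kind, since almost the same pair (-0.39 and -0.60) stood at -23.7 kb from Slc7a10. The spread of such VEH pairs, here and below, is not one between livers. The size of their differences is thus uncertain and the SE may be too small. They were 2.395 and 1.08 at NADIR_180, 6.57 and 6.68 at CONS_140, and 6.26 and 6.225 at CONS_180. All CORT libraries exceeded VEH and the NADIR_180 pair lay between. The differences were 7.075 ± 0.51, 2.24 ± 0.51, 7.12 ± 0.51 and 6.74 ± 0.51, all called (limma adjusted p = 0.03 at NADIR_180), and all but NADIR_180 stayed called with centred libraries. With 1 library left out, the NADIR_180 difference ran from 1.58 to 2.89, and its call held in 2 of 4 fits. It was lost without VEH replicate 2, as were those of the Slc38a4 and Slc43a1 regions below (14.4 kb and 12.3 kb). Those calls, too, held in 2 of 4 fits each. A further region at the Slc7a2 promoter (rn6 chr16:54513211-54513738) was called at CONS_140 alone (3.59 ± 1.32, limma adjusted p = 0.038), where its libraries read 3.715 and 1.20. That call was lost without VEH replicate 1, VEH replicate 2 or CONS_140 replicate 1 (adjusted p = 0.11, 0.13 and 0.21), and the sign turned with centred libraries (-0.52).

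Slc38a2 had a region in intron 4, 2.92 kb from the start (rn6 chr7:138097720-138098115). Its values were -0.84 and -1.005 in VEH, 4.68 and 3.92 at PEAK_140 and 0.66 and -0.61 at NADIR_180. They were 2.83 and 2.71 at CONS_140 and 3.15 at CONS_180 in both libraries. The pulse libraries were highest and the NADIR_180 pair was back near VEH. The differences were 5.22 ± 0.67, 0.945 ± 0.67 (not called), 3.69 ± 0.67 and 4.07 ± 0.67; with centred libraries that at CONS_140 turned to -0.42 and none was called. A second region at -49.9 kb, at the edge of the window and at the promoter of an unnamed gene model (rn6 chr7:138150455-138151121), was raised at all 4 (7.07, 3.05, 6.77 and 6.20, each ± 0.55), and at PEAK_140, CONS_140 and CONS_180 also with centred libraries.

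Slc38a4 had 4 regions in its gene body. The strongest, in intron 13 (14.4 kb from the downstream start, rn6 chr7:138468891-138469516), had -0.61 and -0.80 in VEH, 5.67 and 5.15 at PEAK_140, 1.501 and 1.72 at NADIR_180, 4.48 and 5.06 at CONS_140, and 3.82 and 4.42 at CONS_180, and was raised at all 4 (6.115 ± 0.55 at PEAK_140). Those at 13.5 kb and -12.3 kb were raised at PEAK_140, CONS_140 and CONS_180 (3.13 to 4.74), and the one at -11.6 kb was not called at any time. With centred libraries none of the 4 was raised, and that at -11.6 kb was lowered at PEAK_140 (-4.24).

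**Figure D4:**
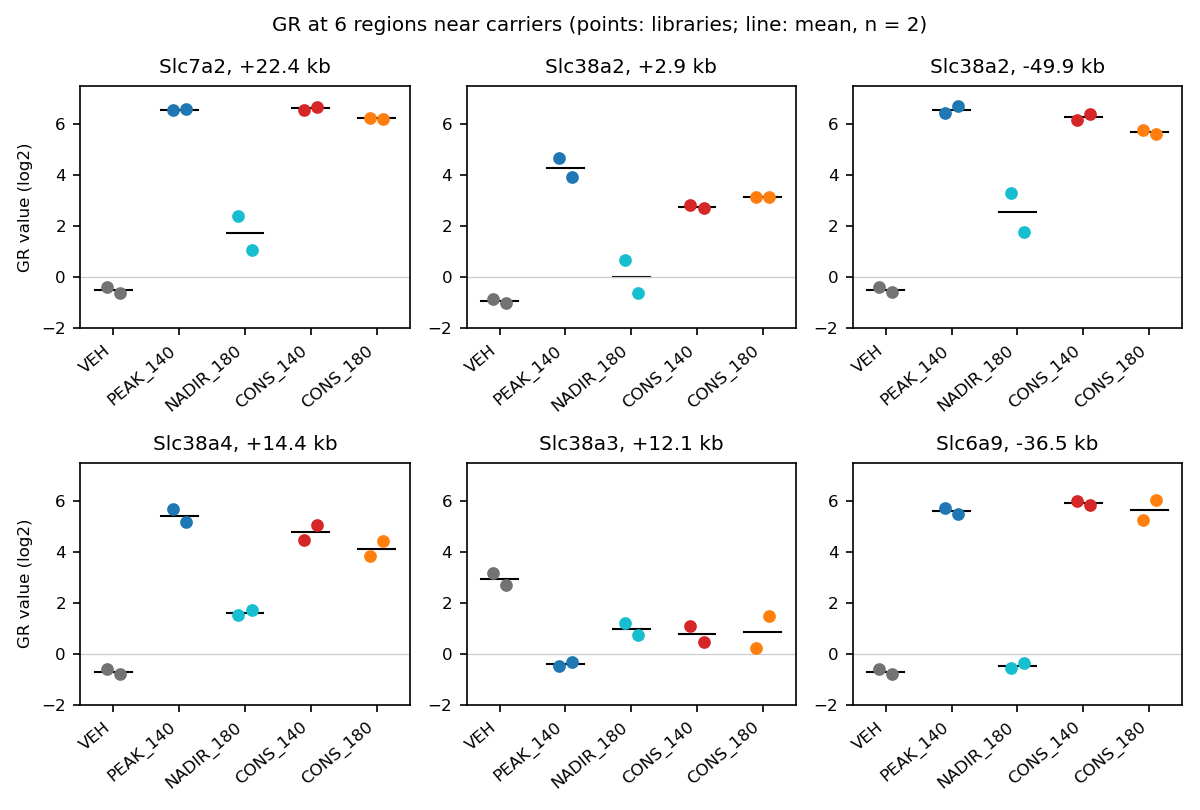
GR values (log2) at 6 regions near Slc7a2, Slc38a2, Slc38a4, Slc38a3 and Slc6a9, with the distance from the transcript start in each title; points are the 2 libraries of a group and lines their mean. Slc7a2 at +22.4 kb reads 6.55 and 6.61 at PEAK_140 against -0.40 and -0.60 in VEH, and the Slc38a3 region at +12.1 kb reads highest in VEH, at 3.15 and 2.68.

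Slc43a1 had regions at 10.7 kb and 12.3 kb within the gene and at 48.1 kb, the last also at -42.9 kb from Slc43a3 and nearest to Rtn4rl2. The region at 12.3 kb was raised at all 4 (4.63, 2.92, 4.60 and 4.30, each ± 0.69), and none of the 3 was called with centred libraries. Slc6a13 and its neighbour Slc6a12, the betaine and GABA carrier, shared 3 regions, of which 2 lay in intron 2 of Slc6a13 and were raised at PEAK_140, CONS_140 and CONS_180, 1 of them also at NADIR_180 (2.87 ± 0.64). The third lay at the Slc6a12 promoter (rn6 chr4:153920780-153921175) and was called at PEAK_140 only, with 2.78 and 3.93 against -0.91 and -1.08 in VEH (4.35 ± 1.45, limma adjusted p = 0.021); it turned to -0.265 with centred libraries. Slc6a12 RNA had log2 fold changes of 0.32 ± 0.13 in PULS and -0.32 ± 0.13 in CONS, neither called.

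Slc7a10, a carrier of small neutral amino acids, had 4 regions, all raised at PEAK_140, CONS_140 and CONS_180. That at -23.7 kb read 6.95 and 6.78 at PEAK_140 and -0.39 and -0.595 in VEH. Its differences were 7.36, 7.40 and 6.74 (each ± 0.84), as large as those at the Slc7a2 intron. All of these stayed called with centred libraries. The region at 37.4 kb was also raised at NADIR_180 (2.71 ± 0.58, limma adjusted p = 0.022). Slc7a10 RNA had a mean of 4.85 CPM and was not called (0.85 ± 0.34 in PULS, edgeR adjusted p = 0.16). Without PULS VEH replicate 3 it was called raised in PULS (1.38, edgeR adjusted p = 0.03). Slc38a3 had regions at -11.5, 12.1 and 14.3 kb, and that at 12.1 kb (rn6 chr8:116410185-116410334) went the other way, with 3.15 and 2.68 in VEH, -0.50 and -0.33 at PEAK_140, 1.19 and 0.74 at NADIR_180, 1.10 and 0.46 at CONS_140, and 0.24 and 1.48 at CONS_180. It was lowered at PEAK_140, CONS_140 and CONS_180 (-3.33, -2.135 and -2.055, each ± 0.72), also with centred libraries, and it was a peak in VEH only, so its high VEH values had chosen it. The other lowered region lay 47.5 kb from Slc7a15 at the Rhob promoter. It was lowered at PEAK_140 and CONS_180 (-5.15 and -5.855, each ± 1.97). Its VEH libraries read 4.66 and 4.02 and its CONS_140 libraries 6.54 and -1.27. This region was a peak in VEH and CONS_140, so its high VEH values had in part chosen it.

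The remaining members had regions that mostly lay nearer to other genes. Slc38a7 had 3, of which 2 lay in an intron of Got2, and Slc6a9, the glycine carrier, had 1 at -36.5 kb near Klf17 that was raised at PEAK_140, CONS_140 and CONS_180 (6.33, 6.64 and 6.37, each ± 0.52) with 0.25 ± 0.52 at NADIR_180. Slc6a6 had 1 at -4.19 kb, Slc38a10 1 at -34.8 kb, Slc36a3 1 at 42.4 kb in Gm2a, Slc7a5 1 at -25.6 kb in Ca5a and Slc7a6 1 at -40.8 kb near Esrp2. Each was raised in at least 1 of the 4 comparisons with VEH, and none of these members was called in RNA or pSer2 Pol2, although Slc36a3 was tested in neither.

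**Figure D5:**
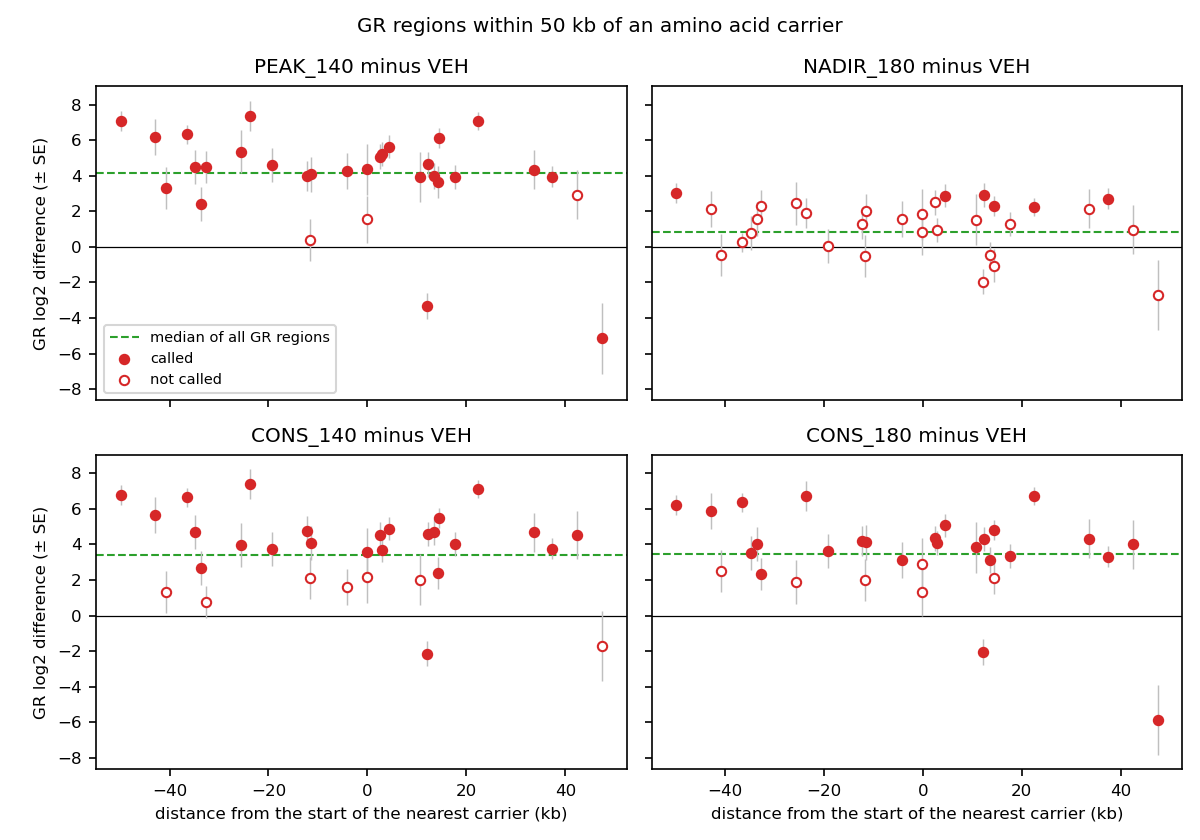
GR log2 difference from VEH with its SE for the 31 regions, by distance in kb from the start of the nearest member, at PEAK_140, NADIR_180, CONS_140 and CONS_180; filled points were called and the dashed line is the median of all 3981 regions (4.17, 0.841, 3.38 and 3.46). The 26 raised points at PEAK_140 lie between 2.395 and 7.36, and the points under 0 there are the regions at 12.1 kb from Slc38a3 and 47.5 kb from Slc7a15.

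PEAK_140 exceeded NADIR_180 at 17 of the 31 regions (54.8% beside 68.8% of all regions, limma), with a median log2 difference of 2.68 against 3.20. The difference between the time effect in PULS and that in CONS was called at 14 (45.2% beside 43.6%), and at 0 with centred libraries. Among the named regions, PEAK_140 exceeded NADIR_180 by 4.84 ± 0.51 at the Slc7a2 intron, 4.28 ± 0.67 at the Slc38a2 intron and 6.07 ± 0.52 upstream of Slc6a9.

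Promoter sequences of 46 of the 62 members could be matched by symbol (RefSeq, build GRCr8, 250 bases before to 50 after the start), and 3 are shown: those of Slc38a2 and Slc38a4, neighbouring system A genes on chromosome 7 that both had raised RNA and pSer2 Pol2, and that of Slc6a12, where a GR region lay on the promoter. Capitals mark AGAACA, 1 arm of the GR recognition sequence, or its reverse complement TGTTCT.
Slc38a2, chr7:129742570-129742869, minus strand: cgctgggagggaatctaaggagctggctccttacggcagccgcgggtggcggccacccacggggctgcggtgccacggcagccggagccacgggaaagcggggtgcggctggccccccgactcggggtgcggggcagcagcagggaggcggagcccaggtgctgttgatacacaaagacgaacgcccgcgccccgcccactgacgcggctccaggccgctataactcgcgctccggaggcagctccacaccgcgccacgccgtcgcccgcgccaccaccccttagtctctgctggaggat
Slc38a4, chr7:130082120-130082419, minus strand: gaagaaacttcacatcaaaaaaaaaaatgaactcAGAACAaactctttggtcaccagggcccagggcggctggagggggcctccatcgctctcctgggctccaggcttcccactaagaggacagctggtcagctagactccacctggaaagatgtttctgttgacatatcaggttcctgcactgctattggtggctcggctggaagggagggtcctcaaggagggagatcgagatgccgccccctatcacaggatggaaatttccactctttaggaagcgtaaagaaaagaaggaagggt
Slc6a12, chr4:156257268-156257567, plus strand: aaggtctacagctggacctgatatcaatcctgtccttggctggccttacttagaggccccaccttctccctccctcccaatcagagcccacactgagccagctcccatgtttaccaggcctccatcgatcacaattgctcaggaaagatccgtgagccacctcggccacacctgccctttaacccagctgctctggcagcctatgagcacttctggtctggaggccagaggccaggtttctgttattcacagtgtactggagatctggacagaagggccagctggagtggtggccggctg

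The arm stood once in the Slc38a4 window, from base 35, and not in the other two. On both strands it was present in 6 of 50 promoters of members (12%) and in 20.7% of all 33469 promoters of the same length. The full sequence, AGAACA and TGTTCT with any 3 bases between, which contains the arm and so overlaps it, was in 0 of the 50 and in 0.0149% of all, and the core of the amino acid response element, TGATGCAA or its reverse complement, was in 2 of the 50 (Slc1a4 and Slc38a1) and in 0.795% of all. These matches describe letters in a 300-base window, not bound sites.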

How the data were processed

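The series held 42 samples, of which 10 were input libraries without values of their own. Per the labels and methods, RNA reads were trimmed, aligned to rn6 and counted per gene with featureCounts 1.6.2, and the deposited unit is raw counts; the strand setting of the counting is not given in the sources used here. For GR and pSer2 Pol2 the authors trimmed reads with Trimmomatic 0.36, removed duplicates, counted input-subtracted tags with HOMER 4.9.1 and deposited normalised log2 values, which are drawn towards the region mean at low tags. The methods scale GR to tags within binding regions and the file header to total tags, so which was used is unsettled. Columns and tables of the authors' own comparisons (fold changes and p-values) were not used. GR regions also carry the authors' mark of the groups in which they were peaks.

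The members and gene lists were chosen with earlier results of these data known. RNA genes with more than 10 reads over 12 libraries were fitted in 1 model of 4 groups with edgeR 4.0.16 (quasi-likelihood, TMM) in R 4.3.3, and GR and pSer2 Pol2 values in 1 model of 5 groups each with limma 3.58.1 (variance trend), with p-values adjusted over all genes or regions (Benjamini-Hochberg) and a call at below 0.05 and above 1.5-fold. After the study's methods, a pSer2 Pol2 gene with several regions was represented in each comparison by its called region of greatest change, otherwise by that of highest mean value, so Slc38a4 was represented by its upstream start at CONS_140 and by its downstream start elsewhere. Comparisons with VEH share the same 2 VEH libraries. Genes were named when called in RNA or pSer2 Pol2, when a GR region called against VEH lay within 50 kb, or when among the 6 with the highest mean CPM; Slc38a9, Slc3a2, the list genes and the promoters shown were chosen after their values were seen. Floors for a count of 0 used 3 reads and cover counting error only. Alternatives were DESeq2 1.42.0, other filters and scalings, the libraries of 1 comparison alone, each library left out and the replicate number as a block. Same-numbered pSer2 Pol2 libraries deviated together (r = 0.155 to 0.553 over 6 pairs of groups, each with 1 independent value since a group has 2 libraries). The pSer2 Pol2 differences, SE and p-values given in the Results do not use this pairing, since their fit held the group only. For pSer2 Pol2 the block was an alternative for the comparisons without VEH, because the labels give the VEH libraries no replicate number. The scripts were tested on simulated data.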

Additional observations from a re-analysis of the deposited data

Results flagged for a closer look

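At 14 GR regions near members, 45.2% beside 43.6% of all regions, the change from 140 to 180 min differed between the patterns. The difference between the 140 and 180 min libraries was larger under pulsatile than under constant infusion (limma, adjusted p from 0.0038 to 0.049). The regions near members were listed as peaks in groups other than NADIR_180, so this difference and its p-values are in part built into the list. Each value below is the PEAK_140 minus NADIR_180 difference less the CONS_140 minus CONS_180 difference, on the log2 scale. The largest was 5.80 at -36.5 kb from Slc6a9, where PEAK_140 exceeded NADIR_180 by 6.07 and CONS_140 exceeded CONS_180 by 0.27. At -40.8 kb from Slc7a6 it was 4.93, from 3.78 in PULS and -1.16 in CONS, where CONS_140 replicate 2 read -0.99. Slc7a10 had 4.81 at -23.7 kb and 4.43 at -19.2 kb. Slc38a2 had 4.66 in its intron 4 and 3.45 at -49.9 kb, and Slc7a2 had 4.45 in its first intron. The Slc38a3 region at 14.3 kb had 4.43, and the region shared by Slc43a1 and Slc43a3 had 4.28. Slc6a6 had 4.20 at -4.19 kb, from 2.68 in PULS and -1.52 in CONS, where CONS_140 replicate 2 read -0.95. Slc38a7 had 3.77 at -32.7 kb, from 2.21 in PULS and -1.56 in CONS, where CONS_140 replicate 1 read -1.42. At that Slc38a7 region PEAK_140 against NADIR_180 was not called (limma adjusted p = 0.052). Slc38a4 had 3.15 at 14.4 kb and 2.90 at 13.5 kb, and the intron region shared by Slc6a13 and Slc6a12 had 2.95.

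The median of the same difference over all 3981 GR regions was 3.11, and 0 of the 14 were called with each library centred on its median.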

How the results depend on the processing

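RNA counts of called members moved for the CONS response against the PULS response (0), which was 2 with DESeq2's Wald test and 2 with no filter on low counts. Leaving out 1 library gave 1 to 3 called members in PULS, 3 to 4 in CONS and 0 to 2 for that difference. Slc38a2 stayed called in PULS and in CONS without any 1 library. In PULS, Slc38a9 was called lowered without PULS CORT replicate 3 (-0.677) and with no fold threshold.

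For pSer2 Pol2, PEAK_140 gave 3 called members with no variance trend, 2 with centred libraries and 0 with only the 4 libraries of the comparison, and 0 to 1 with 1 library left out. CONS_140 gave 0 with only its 4 libraries and 0 to 16 with 1 library left out (16 without CONS_140 replicate 2). CONS_180 gave 1 with centred libraries. PEAK_140 against NADIR_180 gave 2 with no variance trend, 2 with centred libraries, 0 with its 4 libraries and 0 to 0 with 1 library left out. The time effect in PULS against CONS gave 0 to 15, the 15 without CONS_140 replicate 2. The downstream start of Slc38a4 changed sign, from -0.0556 to 0.592 at PEAK_140 and from -0.0943 to 0.553 at CONS_180 with 1 library left out, and to 0.012 for PEAK_140 against NADIR_180 with centred libraries.

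For GR, centred libraries gave 6 called regions at PEAK_140, 0 at NADIR_180, 6 at CONS_140, 5 at CONS_180, 1 for PEAK_140 against NADIR_180 and 0 for the time effect in PULS against CONS, since centring removes the general rise. Within 10 kb, where fewer regions are tested, the counts were 5, 1, 4, 4, 4 and 3. NADIR_180 gave 3 with no variance trend and 0 with its 4 libraries. With 1 library left out the counts ran from 1 to 10 at NADIR_180, 16 to 21 at CONS_180, 11 to 17 for PEAK_140 against NADIR_180 and 4 to 14 for the time effect.

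The signs listed here are those of the regions near Slc38a2, Slc38a4, Slc43a1 and Slc7a2 only. Many regions near other members also turned with centred libraries. At PEAK_140, for example, the region at -33.6 kb from Slc38a7 had -2.22 and that at -40.8 kb from Slc7a6 had -1.31. Among the listed regions, with centred libraries the sign turned at PEAK_140 for Slc38a4 at -12.3 kb (-0.62), -11.6 kb (-4.24) and 13.5 kb (-0.631), Slc43a1 at 10.7 kb (-0.686) and the Slc7a2 promoter (-3.05). At NADIR_180 it turned for Slc38a2 at 2.9 kb (-0.235) and the Slc7a2 promoter (-0.331). At CONS_140 it turned for Slc38a2 at 2.9 kb (-0.417), Slc38a4 at -11.6 kb (-2), Slc43a1 at 10.7 kb (-2.09) and the Slc7a2 promoter (-0.52). At CONS_180 it turned for Slc38a4 at -11.6 kb (-2.06) and 13.5 kb (-0.927), Slc43a1 at 10.7 kb (-0.232) and the Slc7a2 promoter (-2.75). With 1 library left out, Slc38a4 at -11.6 kb ran from -1.11 to 1.87 at PEAK_140 and from -1.89 to 0.865 at NADIR_180, Slc38a4 at 13.5 kb from -1.06 to 0.146 at NADIR_180, Slc43a1 at 10.7 kb from -0.0272 to 4.07 at CONS_140 and the Slc7a2 promoter from -0.24 to 2.87 at CONS_180. The cause of the other changes was not tested.

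With the replicate number as a block, called members numbered 3 in PULS, 6 in CONS, 0 for the difference of responses and 0 between the vehicle groups in RNA. For the paired pSer2 Pol2 libraries the block gave 1 for PEAK_140 against NADIR_180 and 0 for the time effect, and for GR it gave 18 and 14 regions, so it moved no count by over 1.5 times. Same-numbered libraries did not deviate together in GR (r = -0.0265 to 0.0718) or RNA (r = -0.0488 to 0.081), where they share only a number. With 2 libraries a group, a library left alone is assumed to vary like those of the other groups.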
